A study of Mus musculus with 8 samples.

Results

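The genes described here encode the nuclear pore complex, the channel through which RNA and protein pass between nucleus and cytoplasm. Of the 23084 genes in the deposited table, 30 were taken by symbol, namely the 20 genes named Nup followed by a digit and 10 further genes (Nupl1, Nupl2, Pom121, Ndc1, Tpr, Rae1, Seh1l, Sec13, Aaas and Ranbp2). RNA was sequenced from CD11b+Ly6C+ (monocytic) and CD11b+Ly6G+ (granulocytic) myeloid cells sorted from the spleens of wt and LmnaMyeKO C57BL/6 mice aged 6 to 8 weeks. In LmnaMyeKO mice, LysM-Cre, which is driven by the lysozyme gene Lyz2 and is active in myeloid cells, deletes floxed Lmna. The sources used here do not state whether wt mice carried floxed alleles, or whether the mice of this experiment bore tumors. There were 8 samples, with 2 in each of 4 groups, and nothing in the labels states whether those of a group came from separate mice. The cell-marker label reads CD11b+Ly6C+ for all 8 samples, so the subset was read from the titles.

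A pore is built from rings of scaffold proteins held in the nuclear envelope by membrane proteins. Nucleoporins rich in phenylalanine-glycine (FG) repeats fill the channel, filaments reach into the cytoplasm, and a basket reaches into the nucleus, where it sits close to the lamina. Lamin A/C, the product of Lmna, and lamin B1 form that lamina, and basket proteins such as Nup153 and Tpr are known for their contacts with lamina and chromatin. Granulocytes are known for segmented nuclei and a low lamin A/C content.

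The values below are levels, not differences between genotypes. The table gives each gene a mean of counts that the authors divided by a size factor for each library, termed mean normalized signal here, with no value per sample. Its lowest values show how many libraries were averaged. Where a gene has a read in few libraries, its mean is a sum of fixed steps, and all 1730 genes with a mean under 0.5 fell on sums of 8 such steps within 3e-09. The mean therefore covers 8 libraries, the number in the series, and carries no replicate spread. The steps name no sample. That the 8 are those of the series, so that the levels mix both subsets and both genotypes, is inferred from that number. All 1730 had a read in at least 2 libraries. The 8 size factors ran from 0.796 to 1.05 in 7 libraries and reached 1.91 in the other, and the steps do not say which sample that is. The authors' own comparison columns hold a single contrast of wt with LmnaMyeKO, whereas the authors compared the genotypes in each subset. The label of these columns does not spell out a subset. They were not analysed here, and no test was run. Fewer cells of a type and less RNA per cell cannot be told apart in sorted bulk samples.

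Of 9 myeloid marker genes, 8 had mean normalized signals of 2504 (Ccr2) or more, and Ly6c1, a gene of the Ly6C antigen beside Ly6c2, had 62.2. S100a9 and S100a8, calcium-binding proteins abundant in granulocytes, had mean normalized signals of 725556 and 413320. Itgam, which encodes CD11b, had 54060, Ly6c2 had 14413 and Ly6g had 7853. Lmna itself had a mean normalized signal of 79.5. Markers of other cells were present as well. Of 12 such genes none was at 0, and their mean normalized signals ran from 39.2 for Pf4, a platelet gene, to 10558 for C1qb, a macrophage complement gene. The B-cell genes Cd79a and Ms4a1 had 5923 and 5085. The part of these cells in the pore gene levels was not tested.

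All 30 pore genes are annotated as protein-coding, and each was listed once. Their summed mean normalized signal was 31882, which is 0.126% of that of all genes. The mean normalized signal per gene ran from 44.2 for Nup210l to 5192 for Tpr, with 9 genes at 1000 or more and 4 under 100. Tpr, Ranbp2 and Nup210 together held 38.1% of the members' signal. From the steps, the lowest of the 30, Nup210l, rests on at least 282 reads over the 8 libraries, which puts counting error at 5.95% or less for every pore gene. Biological spread, which the mean does not show, is not part of that limit.

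Long transcripts collect more reads, so genes were compared per kb of their merged annotated exons. On this scale the median of the 30 was 132 mean normalized signal per kb, against 18.8 over the 23004 genes with a length and 60.2 over the 15697 protein-coding genes. Of the 30, 29 lay above the median of all listed genes and 23 above that of protein-coding genes. Among all protein-coding genes, 64.8% lay above the median of all listed genes. The median percentile of the pore genes was 73.8 among all listed genes and 63.8 among protein-coding genes. The range was wide, from 7.72 per kb for Nup210l to 495 for Tpr, a 64.0-fold span. Tpr alone lay above the 90th percentile of all listed genes, and 14 of 30 lay above the 75th percentile, as did 34.5% of protein-coding genes.

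**Figure D1:**
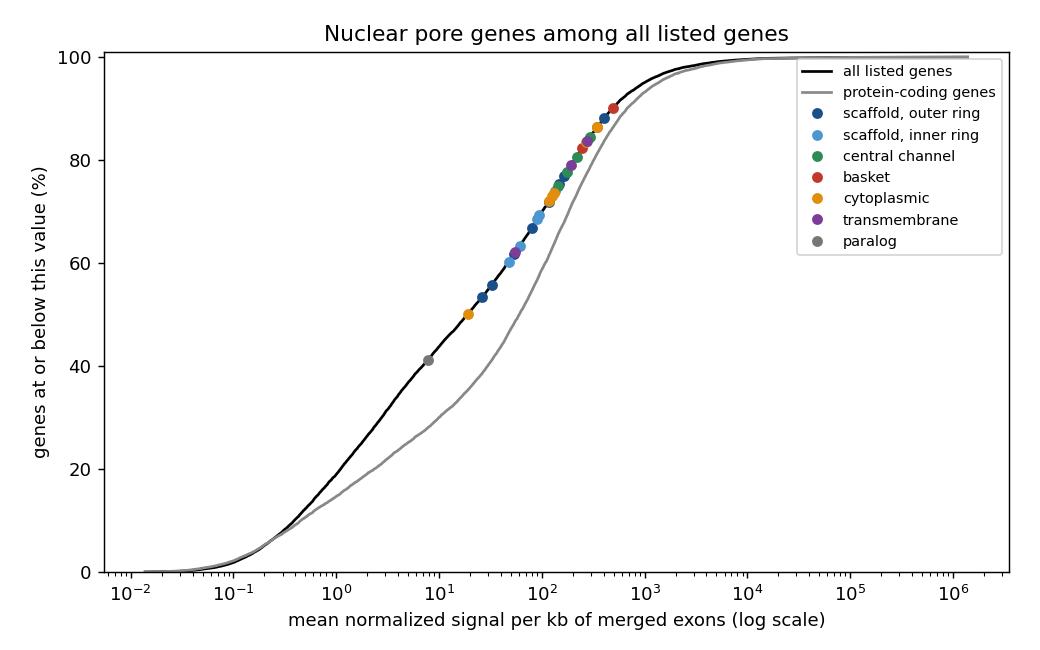
Cumulative share of genes (y axis, %) against mean normalized signal per kb of merged exons (x axis, log scale) for all listed genes (black line) and protein-coding genes (grey line), with the 30 pore genes as coloured points on the curve of all listed genes. The pore genes sit between percentile 41.1 (Nup210l) and 90.1 (Tpr).

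By part of the pore, the basket had the highest median level and the scaffold rings the lowest. The median mean normalized signal per kb was 346 for the 3 basket genes, 197 for the 4 channel genes, 192 for the 3 transmembrane genes, 128 for the 6 cytoplasmic genes, 98.4 for the 8 outer ring genes and 90.04 for the 5 inner ring genes. Every basket gene and every channel gene lay above every inner ring gene on this scale. All other pairs of parts overlapped in range. Parts hold few genes and the genes are not replicates, so the order was not tested. It also depends in part on the length used. With the longest annotated transcript as length, the cytoplasmic median was 254, above the transmembrane median of 192, while basket and channel stayed the highest and the inner ring the lowest. Without division by length, the median mean normalized signal was 2431 for the basket, 1074 for the transmembrane genes, 820.4 for the cytoplasmic genes, 813 for the channel, 568 for the inner ring and 480.3 for the outer ring. The basket was thus the highest on all 3 scales, whereas the channel fell to the fourth place and the outer ring was the lowest without division by length.

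**Figure D2:**
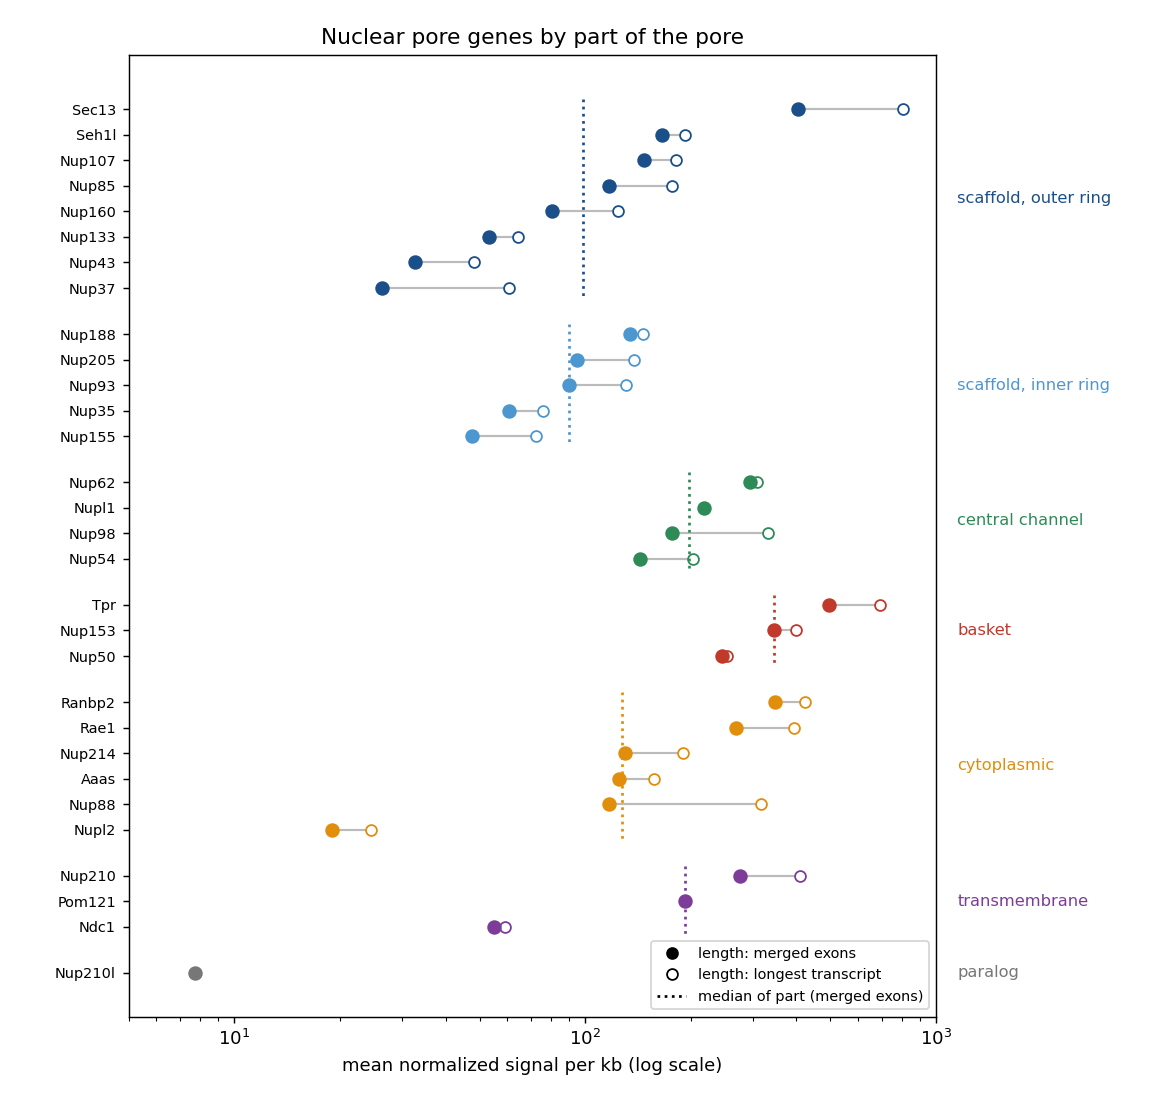
Mean normalized signal per kb (x axis, log scale) of each pore gene, grouped by part of the pore. Filled points use the merged exons as length and open points the longest annotated transcript, each point is the authors' mean over 8 libraries, and dotted lines mark the median of a part; the basket median is 346 and the inner ring median 90.04.

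The 3 basket genes were the first, the fourth and the eighth of the 30 per kb of merged exons. Tpr, a coiled-coil protein that forms the filaments of the basket, had a mean normalized signal of 5192, the highest of the 30, and 495 per kb. Tpr lies on the plus strand of chromosome 1 of mm10 (150392838 to 150449935). Nup153, which anchors the basket to the nuclear ring, had 2431 and 346 per kb, and lies on the minus strand of chromosome 13 (46679905 to 46727940). Nup50, a Nup153 partner that acts with importin alpha in import, had 1205 and 246 per kb, and lies on the plus strand of chromosome 15 (84923411 to 84942963). Per kb of merged exons the highest basket gene was 2.01-fold above the lowest, and with the longest transcript as length the gap was wider, with Tpr at 694 and Nup50 at 253. The basket held 27.7% of the members' mean normalized signal with 3 of 30 genes. This share is not divided by length, and the median merged exon length was 7.02 kb in the basket against 4.91 kb over the 30.

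In the channel, Nup62, Nup54 and Nupl1 (Nup58) form a complex of FG nucleoporins. Their mean normalized signals were 843, 478 and 783, or 295, 144 and 217 per kb, so that the partners of this complex lay within 2.06-fold of each other. Nup98, a mobile FG nucleoporin whose precursor is cut to release the scaffold protein Nup96, had a mean normalized signal of 2228. Its 177 per kb became 333 with the longest transcript, since its merged exons (12.6 kb) are longer than any annotated transcript (6.69 kb). Nupl1 shares 1756 bases of exon with Gm49336, a gene model of GENCODE M21 that is not listed in the table. Whether GENCODE M12, on which reads were counted, held this model was not checked. If it did, reads there could be assigned to either model.

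The cytoplasmic side had the widest measured span of the parts, 18.3-fold per kb, against 15.3-fold in the outer ring. This span rests on its lowest gene, Nupl2. From its highest gene, Ranbp2, to the next lowest, Nup88, the span was 2.96-fold. Ranbp2 (Nup358), the large filament protein that binds Ran and acts as a SUMO ligase, had a mean normalized signal of 4069 and 347 per kb, and lies on the plus strand of chromosome 10 (58446920 to 58494356). Rae1, an mRNA export factor that binds Nup98, had 687 and 269 per kb. Nup214 and Nup88, which form a complex at the base of the filaments, had 1258 and 954, or 130.2 and 117 per kb. Nup88 moved the most of the 30 with the longest transcript as length, to 318 per kb, as its merged exons span 8.14 kb and its longest transcript 3 kb. Aaas, which encodes ALADIN, a protein held at the pore by Ndc1, had 350 and 125 per kb. Nupl2, a small FG protein that binds the export factor Gle1, was far below the others of this side, with a mean normalized signal of 71.5 and 19.0 per kb, at percentile 50.1 of all listed genes. Nupl2 lies on the plus strand of chromosome 5 (24164963 to 24184013).

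Of the transmembrane genes, Nup210 had the highest level, with a mean normalized signal of 2886 and 276 per kb. Nup210 encodes a membrane glycoprotein of the pore with a large domain in the lumen of the envelope, and lies on the minus strand of chromosome 6 (91013068 to 91116829). Its paralog Nup210l had 44.2 and 7.72 per kb, the lowest of the 30, and is known mainly from testis. Pom121, an FG-bearing membrane protein needed for pore assembly, had 1074 and 192 per kb. A share of 11.9% of the exon bases of Pom121 overlaps Nsun5 on the opposite strand. Ndc1, which anchors pores and is also known at spindle pole bodies in yeast, had 271 and 55.0 per kb. Nup210 was thus 5.01-fold above Ndc1 per kb.

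The scaffold, with 13 genes, held 22.1% of the members' mean normalized signal, not divided by length. In the outer ring, which is built from Y-shaped complexes, Sec13 stood far above its partners with a mean normalized signal of 1290 and 405 per kb. Sec13 also coats the vesicles that leave the endoplasmic reticulum and serves in the GATOR2 complex of nutrient sensing, so its transcript is not specific to the pore. Seh1l, likewise shared with GATOR2, was the next at 683 and 166 per kb. The other members of the Y complex were lower per kb. Nup107 had 566 and 147 per kb, Nup85 had 395 and 117 per kb, Nup160 had 703 and 80.2 per kb, and Nup133 had 375 and 53.3 per kb. The small members Nup43 and Nup37, WD-repeat proteins of the Y complex, were lowest, at 83.7 and 88.0, or 32.7 and 26.4 per kb. Per kb, Sec13 was 15.3-fold above Nup37 within one ring. With the longest transcript as length, Sec13 rose to 807 per kb and passed Tpr (694), and Nup37 had 60.8.

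The inner ring was narrower, 2.82-fold from its highest to its lowest gene per kb. Nup188 and Nup205, large related solenoid proteins, had mean normalized signals of 837 and 883, or 134 and 94.9 per kb. Nup93, which links the ring to the channel, had 383 and 90.04 per kb. Nup35 (Nup53), which contacts the membrane, had 204 and 60.7 per kb, and Nup155 had 568 and 47.5 per kb. Nup35 has a near-identical copy in Gm4353, with 99.6% identity over 1547 bases, so reads of these genes could be assigned to either. Gm4353 itself had a mean normalized signal of 3.09. Of the 30 genes, 9 overlap the exons of another listed gene, and the share of all listed genes that do so was not computed. Whether counting used strand is not given in the sources used here. Strand would not separate the overlaps of Nup62 with Il4i1 (97 bases), Nupl1 with Atp8a2 (241) and Nup35 with Dusp19 (131), which lie on the same strand.

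The pore genes were set beside genes of nuclear transport and of the lamina. Importins, which carry cargo into the nucleus, had a median of 167 mean normalized signal per kb over 16 genes, from 33.3 for Ipo11 to 699 for Kpnb1, the importin beta that drives classical import. Exportins had a median of 98.6 over 7 genes, from 30.4 for Xpo4 to 421 for Xpo6, which exports actin with profilin. The 6 genes of the Ran cycle, which gives transport its direction, had a median of 209, from 151 for Rcc1, the exchange factor for Ran on chromatin, to 825 for Ran itself. Among 10 pore and mRNA export genes outside the rule the median was 167, with Nxf1, the main mRNA export receptor, highest at 675 and Eny2 lowest at 32.0. The ranges of these lists and of the pore genes overlapped.

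The lamina genes spread further than any of these. Lmna had 13.6 mean normalized signal per kb, at percentile 46.7 of all listed genes and below 29 of the 30 pore genes. Lmnb1, which encodes lamin B1, had 1589 per kb and Lbr, the lamin B receptor, 2700 per kb, both above every pore gene. Lmnb2 and Emd, which encodes emerin, had 111 and 393 per kb. If the 8 libraries averaged are those of the series, the mean for Lmna covers the 4 LmnaMyeKO samples as well as the 4 wt samples. It then also covers the CD11b+Ly6G+ samples of both genotypes, a subset the authors report to have less lamin A/C than the monocytic one. The part of genotype or subset in the Lmna level was not tested.

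**Figure D3:**
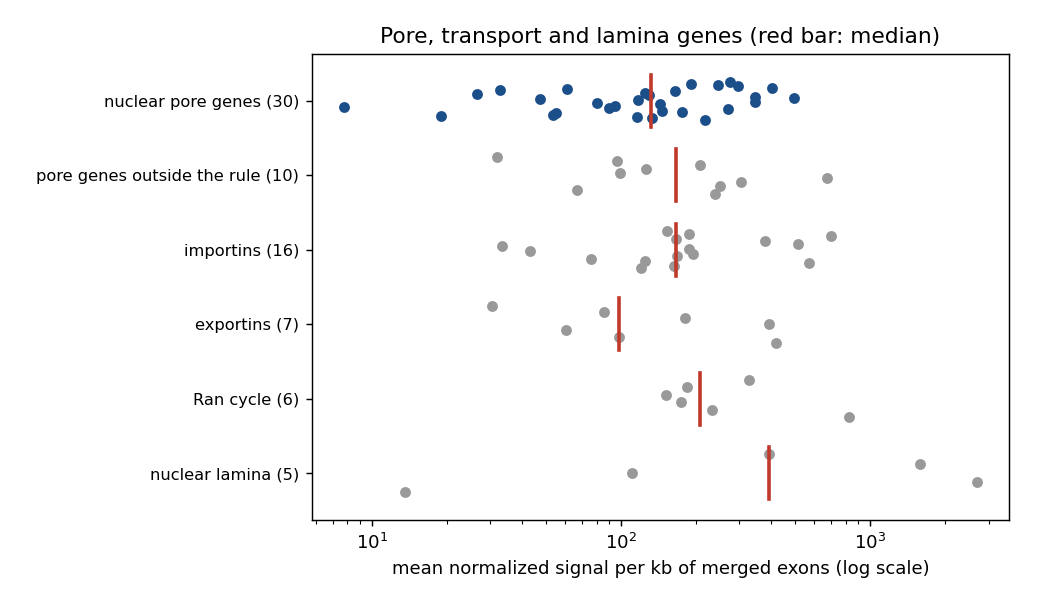
Mean normalized signal per kb of merged exons (x axis, log scale) for the 30 pore genes (blue points) and for 5 lists of pore, transport and lamina genes (grey points), with each list's median as a red bar and its number of genes in brackets. The medians run from 98.6 for the exportins to 393 for the lamina genes, and the pore genes' median is 132.

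The pore genes lie on 14 chromosomes, with at most 5 on one of them (chromosome 2: Nup188, Nup214, Nup160, Rae1 and Nup35). What they share beyond the rule was looked for at their starts. RefSeq promoters (GRCm38.p6, the build that mm10 denotes, 250 bases before to 50 after a start) were found by symbol for 25 of the 30 genes, as 28 promoters, and were not found for Nup210l, Nup35, Nup43, Nup85 and Seh1l. These promoters were rich in CpG, with a median of 28 CpG dinucleotides (range 3 to 45) and a GC content of 63.8%. The 16418 promoters of genes listed in the table had medians of 17 and 59.0%, and all 32851 promoters had 7 and 52.7%.

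A set of 8 short motifs were searched on both strands, and a match is a run of letters, not a bound site. The GC box (GGGCGG) was in 18 of 28 promoters, against 55.3% of promoters of listed genes. The CCAAT box (CCAAT) was in 12 of 28, against 37.0%. The ETS motif (CCGGAAG) was in 8 of 28, in Aaas, Nup107, Nup155, Nup37, Nup54, Rae1 and Sec13, against 14.4%. The YY1 motif (AAGATGGCG) was in 4 of 28, in Nup188, Nup205, Nup50 and Nup88, against 2.34%. The NRF1 motif (GCGCATGCG) was in 4 of 28, in Nup107, Nup50, Nup62 and Nupl1, against 2.98%. The CHR element (TTTGAA) was in 7 of 28 against 12.96%, the TATA box (TATAAA) in 3 of 28 against 8.30%, and the E2F motif (TTTGGCGC) in 0 of 28 against 0.810%. Nup37, Nup93 and Nup98 have 2 promoters each. Those of Nup37 overlap, and those of Nup98 adjoin, sharing base 102210117. No test was run on these shares.

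The bases before the start are printed for Tpr, the highest pore gene per kb, for Nup50, which holds more of the motifs than any other, and for Nupl2, the lowest pore gene that has a promoter entry. Motif matches are in capitals, 5′ to 3′ on the strand of the gene, and each run ends at the base before the RefSeq start. The M21 model of Nup50 starts inside its run, at 84923411. Tpr is at chr1:150392588-150392837, Nup50 at chr15:84923178-84923427 and Nupl2 at chr5:24164713-24164962, all on the plus strand.
Tpr: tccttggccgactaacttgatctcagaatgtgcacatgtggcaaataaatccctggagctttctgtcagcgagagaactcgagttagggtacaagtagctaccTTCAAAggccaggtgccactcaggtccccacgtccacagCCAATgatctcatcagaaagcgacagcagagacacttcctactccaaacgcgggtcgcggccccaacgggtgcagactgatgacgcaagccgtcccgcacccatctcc
Nup50: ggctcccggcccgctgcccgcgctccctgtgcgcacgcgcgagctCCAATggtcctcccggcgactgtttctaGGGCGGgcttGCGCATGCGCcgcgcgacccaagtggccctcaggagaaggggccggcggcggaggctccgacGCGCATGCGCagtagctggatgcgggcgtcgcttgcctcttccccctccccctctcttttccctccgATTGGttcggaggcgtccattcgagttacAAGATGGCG
Nupl2: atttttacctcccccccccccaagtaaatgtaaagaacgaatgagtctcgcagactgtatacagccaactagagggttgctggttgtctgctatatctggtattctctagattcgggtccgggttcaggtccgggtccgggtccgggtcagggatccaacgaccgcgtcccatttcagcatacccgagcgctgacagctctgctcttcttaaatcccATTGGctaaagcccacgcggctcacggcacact
In Tpr the capitals mark a CHR element on the other strand that begins 147 bases before the start and a CCAAT box at 108 bases. The GC box of Tpr, also on the other strand, lies past the start. In Nup50 they mark a CCAAT box at 205 bases, a GC box at 177, palindromic runs that hold the NRF1 motif on both strands from 167 and from 105, a CCAAT box on the other strand at 38 and the YY1 motif at 9. Nupl2 holds a CCAAT box on the other strand at 33 bases.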

How the data were processed

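Per the labels and the methods, adapters were removed by cutadapt 1.14. Alignment to mm10 used STAR 2.5.2b, and RSEM 1.3.0 estimated gene counts on GENCODE M12. The mean normalized signal analysed here is the authors' mean of counts divided by size factors, from DESeq2 1.20.0, in a deposited table of 23084 genes. The other columns of the table hold a single test by the authors of wt against LmnaMyeKO (fold changes, standard errors, statistics and p-values) and were not used. The table holds no values per sample, so the planned count test was replaced by a description of levels.

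Gene IDs were matched without version to GENCODE M21 on the same build (23004 found, 80 not found). Lengths, exon overlaps and near-identical transcripts thus come from another annotation version than the counts (M12). Signal was divided by merged exon length in kb, with the longest transcript as an alternative. A motif search, exon overlaps and near-identical transcripts (blastn 2.17.0, at least 95% identity over 200 bases) were computed with Python 3.11.15 and pandas 2.3.3. The number of libraries averaged was solved from the low means, and the solver was tested on simulated counts of 8 libraries. Other numbers of libraries were not simulated, so that test does not show whether they would be told apart. Members and lists were chosen with earlier results of these data known. Every member is named, with full values for the extremes of each part, and the lists are given by median, highest and lowest. Protein sequences were not used here.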

Additional observations from a re-analysis of the deposited data

Results flagged for a closer look

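The highest of the 8 size factors that the low means give was 1.91, and the next was 1.05. The gap between them is 0.775 of the whole range of the 8, above Dixon's 95% critical value for 8 samples, which chance passes in about 1 of 20 groups. The 8 libraries are not 1 group of the study, and the steps name no sample, so the group of the library with the highest size factor is unknown. A size factor divides counts before they are averaged, so each library weighs on the mean through its normalized count. Its effect on the level of any pore gene was not tested.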

How the results depend on the processing

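No paired analysis was possible because values per sample were not at hand, and for the same reason a genotype test and fits without each replicate were not run. With no spread to judge by, any shift is given. For the 30 genes, the longest transcript as length gave a median of 186 per kb and a median percentile of 74.5. The percentile was 57.8 among genes with a signal of at least 10, 76.9 without division by length and, chosen after the data were seen, 63.8 among protein-coding genes. Without Nup210l, also chosen afterwards, the medians were 134 per kb and percentile 74.0. With the longest transcript, part medians per kb were 150.3 (outer ring), 131 (inner ring), 264 (channel), 398 (basket) and 254 (cytoplasmic), and the transmembrane median kept its value. Without the highest gene of each part they were 80.2 (outer ring), 75.4 (inner ring), 177 (channel), 296 (basket), 125 (cytoplasmic) and 124 (transmembrane). Nup98 counted in the outer ring gave 117 there and 217 in the channel. Aaas counted as transmembrane gave 159 there and 130.2 on the cytoplasmic side. The basket median was the highest under each of these. Division by length uses annotated exons, not the isoforms these cells express, and levels of genes with shared exons may be split differently by another counter.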
